A study of Homo sapiens with 6 samples.

Results

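The genes described here are 42 regulators and effectors of programmed cell death, chosen by name from the 63140 genes of the deposited table: the BCL2 family, 7 caspases, the apoptosome and its mitochondrial activators, the inhibitors of caspases, adaptors of death receptors, and effectors of necroptosis and pyroptosis. They were measured by RNA-seq in NOZ, an established human gallbladder cancer line, and in NOZ-R, the line derived from it by raising the dose of gemcitabine in steps until the cells were resistant. Each line had 3 libraries of poly-A RNA, and total counts per library lay between 14136037 and 19244923. The doses, whether drug was present at harvest, and whether NOZ-R is 1 clone are not stated in the labels, and no other treatment is named. The labels do not say whether replicates were separate cultures, so p-values measure the spread between these libraries only, which may be technical. Of 12 epithelial and biliary markers 10 were tested, of which 6 were higher and 3 lower in NOZ-R. That is 90% of those tested, against 60.2% of all tested genes. Of these calls 5 were of at least 2-fold, and the log2 fold changes of the tested markers ran from -1.83 to 3.60. KRT19 measured 927 CPM in NOZ against 891 CPM in NOZ-R, where CPM are counts scaled to a common library size after correction for composition. SOX17, a biliary factor, had no count in any library.

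Mitochondrial apoptosis is set by contacts between BCL2 family proteins. BAX and BAK1 open the outer mitochondrial membrane, anti-apoptotic members such as MCL1 and BCL2L1 hold them back, and BH3-only proteins, which carry a single short helix of the family, either neutralise the anti-apoptotic members or activate the pore formers directly. Released cytochrome c assembles APAF1 and CASP9 into the apoptosome, death receptors act through FADD and CASP8 instead, and inhibitor of apoptosis proteins act on both routes. Gemcitabine is a nucleoside analogue that stalls DNA replication, and this damage is one of the signals known to reach the BCL2 family.

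Of the 42 genes, 38 had enough counts to be tested, 17 were higher in NOZ-R, 7 were lower and 14 did not pass (quasi-likelihood test of edgeR, p-values adjusted by Benjamini and Hochberg over 14386 genes, called below 0.05). Among all tested genes 60.2% were called, 30.4% higher and 29.8% lower, against 63.2%, 44.7% and 18.4% of the tested genes of the list, so the share called was close to that of the whole table. The median log2 fold change was 0.20 over the tested list and -0.01 over all tested genes. Calls with an estimated change of at least 2-fold numbered 4, in CASP1, CASP4, PMAIP1 and BMF, while over all genes 16.5% were of that kind. When libraries were scaled by total count only, the median over all genes was -0.14, and the test then gave 13 higher and 10 lower genes of the list, and correction for GC content gave 14 and 9. The libraries of the lines did not overlap in CPM for 28 of the 38, against 65.3% of all tested genes (32.9% with NOZ-R above and 32.4% with NOZ-R below).

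**Figure D1:**
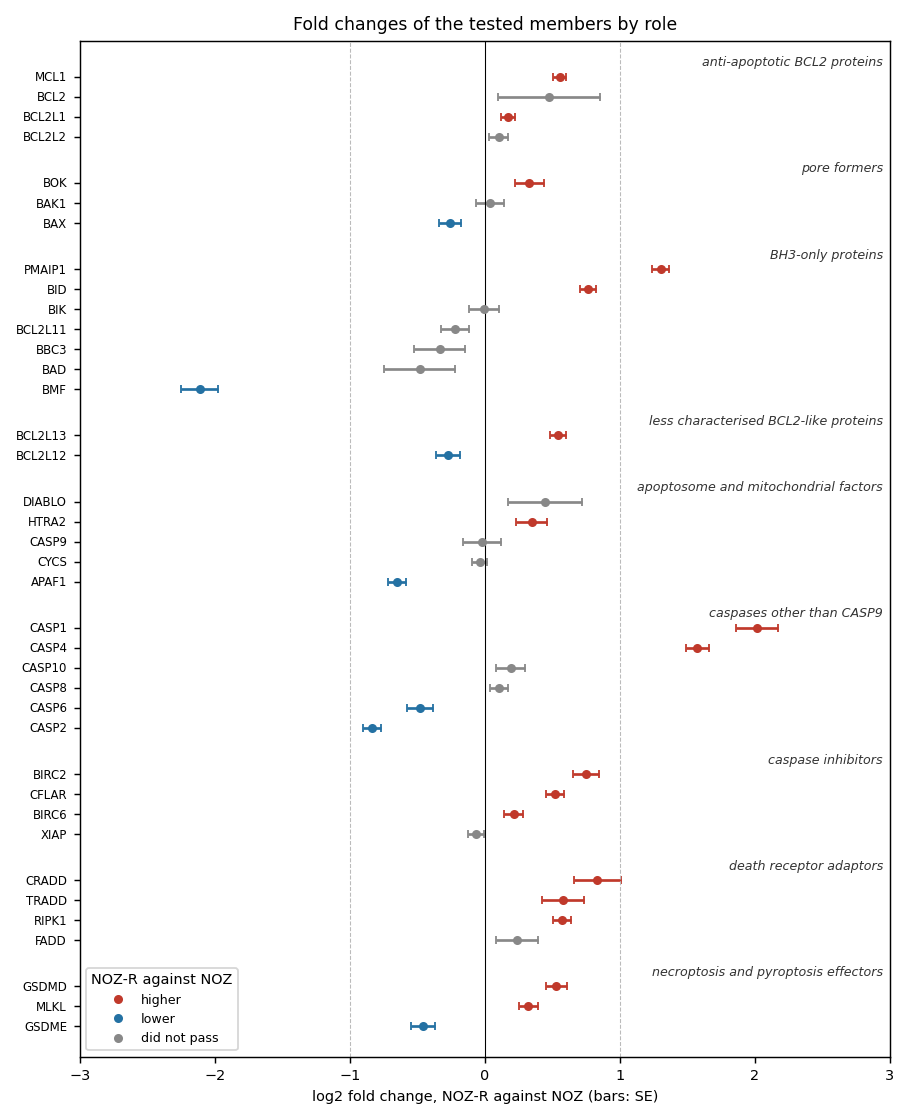
Log2 fold change of NOZ-R against NOZ on the x axis for the 38 tested genes, grouped by role, with bars for the standard error; red and blue points are genes called higher and lower, and dashed lines mark 2-fold. CASP1 at 2.02 and BMF at -2.11 are the extremes, and beside these only CASP4 and PMAIP1 lie beyond 2-fold.

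The promoters of the genes with the largest changes are shown as far as the sequence table holds them. CASP1, MCL1, BCL2L2, BIK, CASP10, TRADD, RIPK3 and GSDMD have no entry, and 34 of the 42 genes matched. The stretches are the 200 bases before the start in RefSeq's GRCh38.p14 annotation, 5′ to 3′ on the gene's strand, and capitals mark matches on either strand to 6 motifs. These are an interferon response core (GAAA repeated after any 2 bases), the STAT element TTCNNNGAA, an NF-kappaB element (GGGA and TTTCC around any 1 base), the ATF4 core TGATGNAA, the GC box GGGCGG and the TATA box TATAAA. The first 3 sequences belong to the most changed BH3-only genes and to BCL2A1, and the last to CASP4.
PMAIP1, chr18:59899796-59899995, plus strand: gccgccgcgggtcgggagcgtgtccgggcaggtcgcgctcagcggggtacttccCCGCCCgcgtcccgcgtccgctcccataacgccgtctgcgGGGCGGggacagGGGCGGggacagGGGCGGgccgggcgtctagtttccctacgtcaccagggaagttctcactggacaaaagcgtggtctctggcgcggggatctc
BMF, chr15:40108880-40109079, minus strand: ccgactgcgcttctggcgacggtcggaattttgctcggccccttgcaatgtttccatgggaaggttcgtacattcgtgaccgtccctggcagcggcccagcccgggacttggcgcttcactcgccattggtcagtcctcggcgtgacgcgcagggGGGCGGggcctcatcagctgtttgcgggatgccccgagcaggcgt
BCL2A1, chr15:79971197-79971396, minus strand: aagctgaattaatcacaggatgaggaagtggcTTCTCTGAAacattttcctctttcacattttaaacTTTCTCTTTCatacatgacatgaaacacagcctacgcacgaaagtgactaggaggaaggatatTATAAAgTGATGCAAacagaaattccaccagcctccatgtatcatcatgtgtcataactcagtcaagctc
CASP4, chr11:104968575-104968774, minus strand: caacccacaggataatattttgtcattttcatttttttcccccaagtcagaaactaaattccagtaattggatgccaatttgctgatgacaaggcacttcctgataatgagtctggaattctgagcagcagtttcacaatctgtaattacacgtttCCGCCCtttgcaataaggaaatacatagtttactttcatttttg

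No matches overlapped in these 4 stretches. The PMAIP1 stretch held 4 GC boxes and that of BMF 1. The promoter windows reach further before the start than the printed stretches, and also past it. GC content over the whole part before the start was 72.8% for PMAIP1 and 65.2% for BMF. Its median over the promoters of tested genes was 64.8%. The promoters of BCL2A1 (38.8%) and CASP4 (38%) were AT-rich. The BCL2A1 stretch held the STAT, interferon, TATA and ATF4 letters once each. In the whole promoter windows of the 34 genes the interferon core occurred in 3 (CASP8, BCL2A1 and BBC3) and the STAT element in 2 (CASP8 and BCL2A1). The ATF4 core occurred in 2 (HRK and BCL2A1), the TATA box in 3 and the GC box in 24, while the NF-kappaB element occurred in none. Of all 27305 promoters in the table, 3.65% held the interferon core, 7.88% the STAT element, 3.67% the ATF4 core, 12% the TATA box, 44.6% the GC box and 0.579% the NF-kappaB element. Over the 10497 promoters of tested genes the shares were 2.93%, 6.52%, 1.76%, 5.86%, 69.4% and 0.572% in the same order, so the 24 of 34 with a GC box were close to the share of tested genes. Such matches describe letters in these windows and not bound sites.

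Among the anti-apoptotic genes, MCL1 and BCL2L1 made up most of the summed level in both lines, and both were higher in NOZ-R. MCL1 (chromosome 1, 150574551 to 150579738, GRCh38), whose short-lived protein binds several BH3-only proteins and BAK1, measured 318, 302 and 306 CPM in the NOZ libraries and 445, 472 and 442 CPM in the NOZ-R libraries. Every NOZ-R library lay above every NOZ library, and the log2 fold change was 0.55 ± 0.0513 (SE, adjusted p = 6.53e-07 by edgeR). BCL2L1, which encodes BCL-XL and, from the same gene, the shorter pro-apoptotic BCL-XS, measured 252, 255 and 253 CPM in NOZ against 289, 274 and 295 CPM in NOZ-R. The groups did not overlap, yet the change of 0.17 ± 0.0517 (SE, adjusted p = 0.0101 by edgeR) was small. This call was lost in 7 of 19 alternative settings, among them leaving out NOZ-R replicate 3 (0.16) and scaling by library size alone (0.05). Counts per gene do not separate BCL-XL from BCL-XS, or the long and short forms of MCL1. ABALON, on the opposite strand, overlaps 43% of the exon bases of BCL2L1 and held at most 2 counts in any library.

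BCL2L2, which encodes BCL-W, measured 50.4 CPM ± 2.86 in NOZ against 54.1 CPM ± 1.24 in NOZ-R (SD, n = 3 per line), just apart, and did not pass (log2 fold change 0.10, adjusted p = 0.219 by edgeR). BCL2 itself, the founding member, was close to absent, with 16, 8 and 7 counts in NOZ against 15, 14 and 11 in NOZ-R, and did not pass. BCL2A1, an anti-apoptotic gene best known in blood cells and as an NF-kappaB target, had 1, 1 and 0 counts in NOZ against 11, 13 and 9 in NOZ-R, too few to be tested. The ratio over the summed counts was 17.7 with a 95% interval of 4.54 to 153, which covers counting error only. All NOZ-R libraries held more BCL2A1 counts than any NOZ library, but at 0.645 FPKM ± 0.109 (SD, n = 3) its level per length stayed far below that of MCL1.

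Markers of leukocytes were measured beside it, since BCL2A1 and CASP1 are abundant there. The 9 leukocyte markers summed to between 3.71 and 6.44 CPM in NOZ and between 6.504 and 7.25 CPM in NOZ-R. PTPRC, the defining marker, had 49 counts over NOZ and 11 over NOZ-R, and was not tested. CD68 had 1 count over each line, and CD3E had 4 and 1. CSF1R and LYZ were higher in NOZ-R, from 27 to 91 and from 21 to 56 counts. The 5 endothelial markers summed to 2.57 to 3.30 CPM in NOZ and 9.18 to 10.2 CPM in NOZ-R, of which PECAM1 made up most, and the 9 fibroblast markers to 3.10 to 3.59 and 11.3 to 12.002 CPM. Of 3 tested leukocyte markers 2 were called higher, of 5 tested fibroblast markers 3, and the 1 tested endothelial marker was too. None of these was called lower. Over all tested genes 30.4% were higher and 29.8% lower. Log2 fold changes of the tested fibroblast markers ran from -0.54 to 8.94. The part of these markers in the results was not tested. In bulk RNA, fewer cells that express a gene and less RNA per cell cannot be told apart.

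Levels can be compared between genes only per length, for which the deposited FPKM values were used (fragments per kilobase of gene length, scaled to library total, with no correction for composition). In both lines 34 of the 42 genes reached 1 FPKM. The order of genes depends on the length used for each of them. PMAIP1 was the most abundant of the list in both, at 85.4 FPKM ± 6.44 in NOZ against 193 FPKM ± 7.93 in NOZ-R (SD, n = 3 per line). BCL2L1 at 63.1 FPKM ± 0.585, CYCS at 59.7 FPKM ± 2.35 and MCL1 at 51.8 FPKM ± 1.30 followed in NOZ, with no overlap between neighbours in this order. In NOZ-R the order was MCL1 at 69.5 FPKM ± 2.39, BCL2L1 at 65.1 FPKM ± 2.57 and CYCS at 53.1 FPKM ± 2.09. There the lowest MCL1 library, at 67.7 FPKM, lay just above the highest of BCL2L1, and the difference of their means was less than the sum of their SDs. CASP4 moved from rank 24 to 16 and CASP1 from 35 to 27, while CASP2 moved from 12 to 20 and BMF from 29 to 37.

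**Figure D2:**
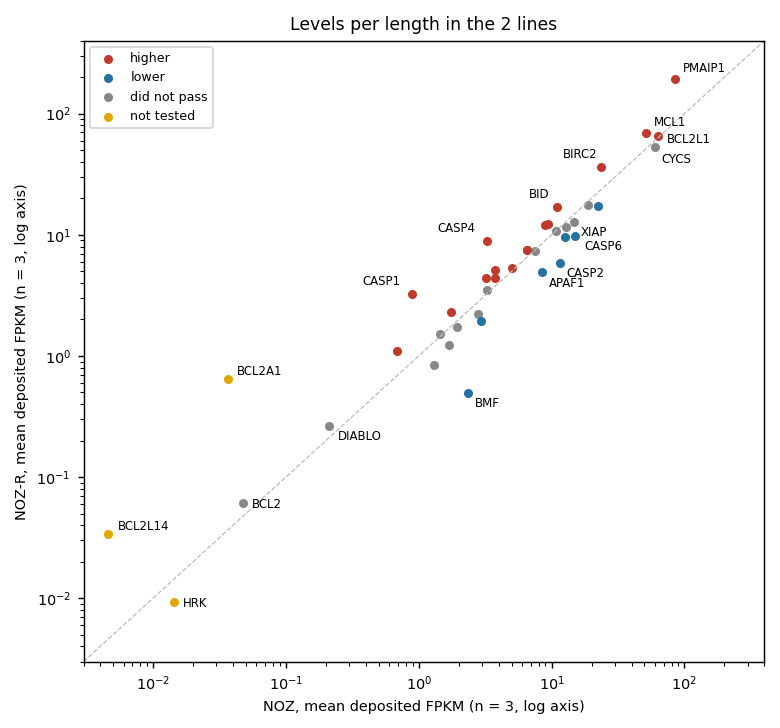
Mean deposited FPKM per gene (n = 3, log axes) in NOZ on the x axis and NOZ-R on the y axis, coloured by call, with the line of equal level dashed; RIPK3, at 0 in every library, is not drawn. PMAIP1 stands highest in both lines, BMF lies below the line, and BCL2A1 lies above it near the bottom of the range.

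Shares of a summed level do not depend on scaling between libraries. MCL1 made up 41.8%, 40.4% and 41.2% of the summed FPKM of the 5 anti-apoptotic genes in the NOZ libraries and 46.9%, 49.4% and 46.5% in the NOZ-R libraries. BCL2L1 made up 50.2% ± 0.869 in NOZ against 44.6% ± 1.80 in NOZ-R (SD, n = 3 per line), and BCL2L2 8.64% ± 0.401 and 7.32% ± 0.163. The ranges of the lines did not overlap for any of these 3 genes. The ratio of MCL1 to BCL2L1 was below 1 in each NOZ library, between 0.797 and 0.851, and above 1 in each NOZ-R library, between 1.01 and 1.16. Which side of 1 this ratio falls on depends on the length used for each gene. Before scaling by length, MCL1 lay above BCL2L1 in both lines, at 309 against 254 CPM in NOZ and 453 against 286 CPM in NOZ-R. BCL2 and BCL2A1 together gave 0.0667% of the sum in NOZ and 0.484% in NOZ-R. These shares are a description, with no test.

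**Figure D3:**
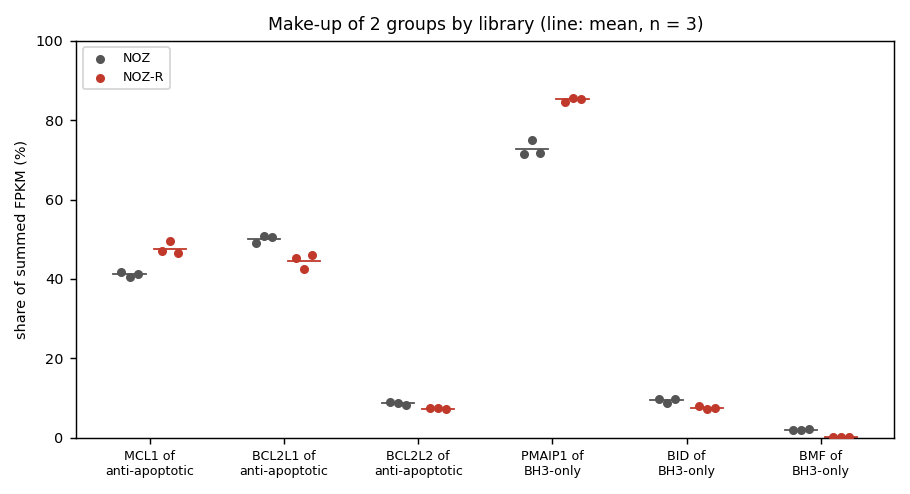
Share of the summed FPKM of the 5 anti-apoptotic genes (left 3 pairs) and of the 8 BH3-only genes (right 3 pairs) in each library, with lines at the means of 3. MCL1 and PMAIP1 take a larger share in every NOZ-R library than in any NOZ library, and the share of BMF is lower in each NOZ-R library than in any NOZ library.

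The called BH3-only genes went in both directions, as did calls over all tested genes. PMAIP1 and BID rose, BMF fell, and 4 of the 7 tested did not pass. That is 28.6% higher and 14.3% lower, beside 30.4% and 29.8% of all tested genes. PMAIP1 (chromosome 18, 59899948 to 59904306), which encodes NOXA, a protein that binds MCL1 and is induced by the integrated stress response, measured 169, 194 and 174 CPM in NOZ. In NOZ-R it measured 419.6, 458 and 449 CPM. All NOZ-R libraries lay far above the NOZ libraries, with a log2 fold change of 1.30 ± 0.0626 (SE, adjusted p = 9.03e-10 by edgeR). BID (chromosome 22, 17734138 to 17774770), which CASP8 cleaves to link death receptors to mitochondria, measured 46.0, 46.0 and 47.8 CPM in NOZ against 79.9, 77.7 and 79.7 CPM in NOZ-R, a change of 0.76 ± 0.0622 (SE, adjusted p = 1.83e-07 by edgeR). All NOZ-R libraries lay well above the NOZ libraries, which were close together.

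BMF (chromosome 15, 40087890 to 40108892), known for its role after loss of cell attachment, measured 11.7, 12.3 and 12.8 CPM in NOZ against 2.60, 2.91 and 3.02 CPM in NOZ-R. This was a change of -2.11 ± 0.136 (SE, adjusted p = 1.82e-08 by edgeR), the largest decrease of the list, and its value ranged from -2.24 to -1.16 over 19 alternative settings with the call kept in each. BCL2L11, which encodes BIM and like BMF can be held at the cytoskeleton, measured 19.97, 19.7 and 16.9 CPM in NOZ against 14.8, 17.9 and 16.03 CPM in NOZ-R. These ranges overlapped and BCL2L11 did not pass (-0.22 ± 0.105, SE, adjusted p = 0.0845 by edgeR), although 6 of 19 alternatives called it lower, among them leaving out NOZ replicate 3 (-0.28) and scaling by library size alone (-0.35). The exons of BCL2L11 overlap MIR4435-2HG on the opposite strand over 10.9% of their length, and MIR4435-2HG was higher (0.69). The ratio of BMF to BCL2L11 per length was 0.842 ± 0.116 in NOZ against 0.225 ± 0.0165 in NOZ-R (SD, n = 3 per line).

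The other BH3-only genes were low or near their parental level. BBC3, which encodes PUMA, measured 5.59, 5.43 and 4.40 CPM in NOZ against 4.86, 2.97 and 4.43 CPM in NOZ-R, overlapping ranges with no call (-0.33, adjusted p = 0.149 by edgeR). BAD, held inactive by survival kinases, had 40, 41 and 31 counts in NOZ against 36, 22 and 17 in NOZ-R and did not pass (-0.48 ± 0.263, SE, adjusted p = 0.130 by edgeR). Leaving out NOZ-R replicate 1 took BAD to -0.75 and into the called genes. Its exons overlap GPR137 on the opposite strand over 23.6% of their length, and GPR137 was higher (0.41). BIK, an endoplasmic reticulum protein, measured 11.6 CPM in both lines. HRK, best known in neurons, had 5 counts over NOZ and 3 over NOZ-R and was not tested. PMAIP1 made up 72.7% ± 1.94 of the summed BH3-only FPKM in NOZ against 85.2% ± 0.510 in NOZ-R (SD, n = 3 per line). Its ratio to MCL1 per length was 1.51, 1.83 and 1.62 in NOZ and 2.69, 2.76 and 2.89 in NOZ-R. The ranges of this ratio did not overlap.

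The pore formers differed by small amounts. BAX, which moves to mitochondria when activated, measured 58.3, 50.9 and 57.5 CPM in NOZ against 45.3, 50.4 and 43.6 CPM in NOZ-R. The lines were just apart, and BAX was called lower (-0.26 ± 0.0802, SE, adjusted p = 0.0133 by edgeR). The call was lost without NOZ replicate 1 or 3 (-0.21 and -0.22) and without NOZ-R replicate 1 or 3 (-0.24 and -0.21). BAK1, which sits in the mitochondrial membrane, measured 42.3, 32.6 and 44.2 CPM in NOZ against 41.4, 37.8 and 42.9 CPM in NOZ-R, fully overlapping (0.04, adjusted p = 0.777 by edgeR). BOK, a relative that is regulated by degradation, rose from 16.7 CPM ± 1.01 to 20.9 CPM ± 2.69 (SD, n = 3 per line), a change of 0.33 whose call was lost in 9 of 19 settings. Those included leaving out NOZ replicate 1 (0.30) or NOZ-R replicate 1 (0.22).

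Of the less characterised relatives, BCL2L13, a mitochondrial protein with a role in mitophagy, rose from 66.0 CPM ± 2.29 to 96.0 CPM ± 1.85 (SD, n = 3 per line), a log2 fold change of 0.54 (adjusted p = 4.13e-06 by edgeR). BCL2L13 and BID are neighbours on chromosome 22, on opposite strands with 3282 bases between them, and both rose. BCL2L12 was called lower at -0.27 (adjusted p = 0.0170 by edgeR). That call was lost by the Wald test of DESeq2 (-0.26) and without NOZ replicate 1 or 3 (-0.26 and -0.20) or NOZ-R replicate 1 or 3 (-0.23 and -0.26). Its annotated exons overlap those of IRF3 on the opposite strand over 33.1% of their length, so reads of the overlap cannot be told apart without strand, and IRF3 was higher (0.24, adjusted p = 0.0102 by edgeR). BCL2L14 had 0, 0 and 1 counts in NOZ against 2, 6 and 1 in NOZ-R.

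Downstream of mitochondria, APAF1 fell while its partner genes were near their parental level. APAF1 (chromosome 12, 98645141 to 98735433), the scaffold of the apoptosome, measured 62.9, 63.9 and 64.3 CPM in NOZ against 42.1, 38.8 and 40.9 CPM in NOZ-R. The lines were well separated, with a change of -0.65 ± 0.0667 (SE, adjusted p = 1.81e-06 by edgeR). CASP9, the initiator caspase that APAF1 activates, measured 11.4, 8.09 and 9.82 CPM in NOZ against 10.6, 9.35 and 8.92 CPM in NOZ-R, overlapping throughout (-0.02, adjusted p = 0.900 by edgeR). CYCS, the gene of cytochrome c, measured 331 CPM ± 13.7 in NOZ against 322 CPM ± 13.7 in NOZ-R (SD, n = 3 per line) and did not pass (-0.04, adjusted p = 0.563 by edgeR). Per length, the ratio of APAF1 to CASP9 was 4.44 ± 0.794 in NOZ against 2.83 ± 0.206 in NOZ-R (SD, n = 3 per line), with no overlap.

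DIABLO and HTRA2 encode mitochondrial proteins that displace inhibitor of apoptosis proteins from caspases once released. HTRA2 rose from 12.3 CPM ± 0.609 to 15.7 CPM ± 1.95 (SD, n = 3 per line), a change of 0.35 whose call was lost in 8 of 19 settings, among them leaving out NOZ-R replicate 1 (0.24). Its exons overlap AUP1 and LOXL3 on the opposite strand, over at most 20.8% of their length, and both of these were higher (0.78 and 1.25). DIABLO had only 28, 26 and 14 counts in NOZ against 35, 25 and 26 in NOZ-R, and did not pass. Another gene model on the same strand shares 29.6% of its exon bases, and that row held at most 2 counts in any library. How reads in shared exons were counted is not stated, so the level of DIABLO is uncertain.

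The caspases of the list split into 2 inflammatory caspases that rose together, 2 apoptotic caspases that fell, and death receptor caspases that did not pass. Of these 6, 33.3% were higher and 33.3% lower, beside 30.4% and 29.8% of all tested genes. CASP1 (chromosome 11, 105025443 to 105035250), the protease of inflammasomes that matures IL-1β and cleaves gasdermin D, measured 3.10, 2.71 and 4.27 CPM in NOZ against 12.9, 12.8 and 14.7 CPM in NOZ-R. The ranges were far apart, with a log2 fold change of 2.02 ± 0.159 (SE, adjusted p = 1.32e-07 by edgeR). CASP4 (chromosome 11, 104942866 to 104969436), which senses cytosolic lipopolysaccharide, measured 22.2, 19.9 and 20.2 CPM in NOZ against 66.8, 56.9 and 61.8 CPM in NOZ-R, a change of 1.57 ± 0.0845 (SE, adjusted p = 2.86e-09 by edgeR). The 2 genes lie on the same strand with 56006 bases between them, and no other tested gene lies between them. CASP5 and CASP12 of the same cluster had no count in any library. CARD16, a neighbour whose sequence resembles the start of CASP1, so that reads may be shared, was higher as well (1.69, from 1.54 to 5.08 CPM). The ratio of CASP1 to CASP4 per length was 0.235, 0.229 and 0.355 in NOZ and 0.324, 0.377 and 0.400 in NOZ-R, overlapping ranges.

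CASP2 (chromosome 7, 143288215 to 143307696), an initiator caspase activated by PIDD1 and CRADD after DNA damage or failed cell division, measured 87.6, 86.0 and 91.6 CPM in NOZ against 47.1, 50.05 and 51.4 CPM in NOZ-R. The lines were widely separated, at -0.84 ± 0.0652 (SE, adjusted p = 1.20e-07 by edgeR). CASP6, an effector caspase that cleaves lamins, fell from 27.8, 24.7 and 31.4 CPM to 20.5, 19.4 and 19.98 CPM, a change of -0.48 ± 0.0968 (SE, adjusted p = 0.000716 by edgeR). CASP8, the initiator at death receptors and the brake on necroptosis, measured 50.8, 54.4 and 50.7 CPM in NOZ against 54.5, 58.1 and 55.6 CPM in NOZ-R. The NOZ-R values lay just above, and the change of 0.11 did not pass (adjusted p = 0.181 by edgeR). CASP10, its relative, did not pass either (0.19, adjusted p = 0.140 by edgeR).

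**Figure D4:**
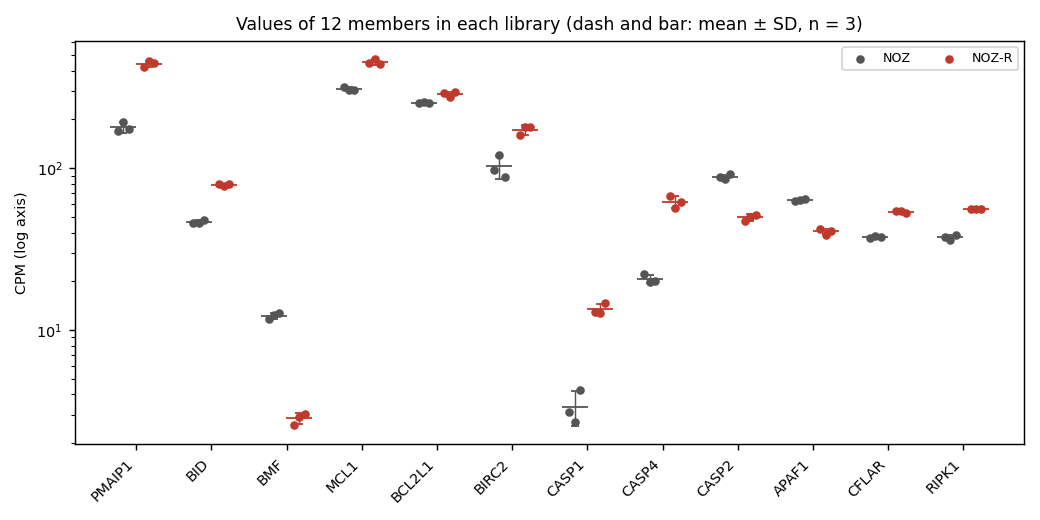
CPM (log axis) of 12 genes of the list in each NOZ (grey) and NOZ-R (red) library, with the mean and SD of 3. All 12 are called genes, so the lack of overlap between the points of the 2 lines comes with the choice of genes. Of the 38 tested genes of the list 28 did not overlap, against 65.3% of all tested genes. Among the 12, the gaps are widest in BMF, CASP1 and CASP4 and narrowest in BCL2L1.

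Of 4 inhibitors of caspases 3 were called higher, where 30.4% of all tested genes were, and the call of BIRC6 among them did not hold in 8 of 19 settings. BIRC2 (chromosome 11, 102347211 to 102378670), which encodes cIAP1, a ubiquitin ligase of the TNF receptor complex, measured 97.6, 121 and 88.6 CPM in NOZ against 159.6, 181 and 178 CPM in NOZ-R. NOZ replicate 2 was the highest of its line and still below every NOZ-R library, and the change was 0.75 ± 0.0962 (SE, adjusted p = 1.43e-05 by edgeR). CFLAR, which encodes c-FLIP, a catalytically inactive relative of CASP8 that blocks it at receptors, rose from 37.6 CPM ± 0.526 to 53.9 CPM ± 0.848 (SD, n = 3 per line), a change of 0.52 (adjusted p = 1.50e-05 by edgeR). CFLAR, CASP10 and CASP8 lie side by side on chromosome 2, with 6193 and 4036 bases between neighbours, and of the 3 only CFLAR passed, although the differences between them were not tested. The ratio of CFLAR to CASP8 per length was 0.233 ± 0.00628 in NOZ against 0.310 ± 0.0118 in NOZ-R (SD, n = 3 per line), with no overlap. The annotated exons of CFLAR span 22529 bases in all and those of CASP8 7243, so the size of this ratio depends on the lengths used. Before scaling by length, CFLAR and CASP8 measured 37.6 and 52.0 CPM in NOZ, and 53.9 and 56.0 CPM in NOZ-R.

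XIAP, which binds and blocks active caspases directly, measured 127, 142 and 132 CPM in NOZ against 126, 130.4 and 128 CPM in NOZ-R, overlapping with no call (-0.06, adjusted p = 0.379 by edgeR). The ratio of XIAP to BIRC2 per length was 0.627 ± 0.0776 in NOZ against 0.352 ± 0.0183 in NOZ-R (SD, n = 3 per line). BIRC6, a giant ubiquitin ligase, was called higher at 0.21 (adjusted p = 0.0159 by edgeR), a call lost without NOZ replicate 3 (0.18) or NOZ-R replicate 3 (0.19).

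Of 4 adaptors and kinases near death receptors 3 were called higher, beside 30.4% of all tested genes. RIPK1, which turns TNF receptor signals toward survival or death, measured 37.6, 36.0 and 38.6 CPM in NOZ against 55.7, 55.7 and 55.6 CPM in NOZ-R, widely apart (0.57 ± 0.0676, SE, adjusted p = 6.45e-06 by edgeR). TRADD, which brings RIPK1 to the receptor, rose from 8.39, 6.15 and 8.80 CPM to 13.7, 10.6 and 10.5 CPM (0.58 ± 0.155, SE, adjusted p = 0.00530 by edgeR). CRADD, the adaptor of CASP2, had 48, 49 and 48 counts in NOZ against 85, 85 and 72 in NOZ-R (0.83 ± 0.176, SE, adjusted p = 0.00103 by edgeR), so the adaptor and its caspase moved in opposite directions. FADD, the adaptor between death receptors and CASP8, had 120, 84 and 78 counts in NOZ against 126, 100 and 84 in NOZ-R, overlapping in CPM, and did not pass (0.24, adjusted p = 0.194 by edgeR).

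Among effectors of lytic death, RIPK3, the kinase that activates MLKL in necroptosis, had 0 counts in all 6 libraries, which allows levels of up to 0.0568 CPM in NOZ and 0.0610 in NOZ-R (3 counts over each line, counting error only). MLKL, which perforates the plasma membrane once phosphorylated by RIPK3, measured 36.3, 34.1 and 35.9 CPM in NOZ against 43.8, 44.5 and 44.6 CPM in NOZ-R (0.32 ± 0.06996, SE, adjusted p = 0.00128 by edgeR). GSDMD (chromosome 8, 143553207 to 143563062), the pore of pyroptosis that CASP1 and CASP4 release, measured 46.4, 41.1 and 49.3 CPM in NOZ against 63.9, 70.6 and 63.1 CPM in NOZ-R (0.53 ± 0.0803, SE, adjusted p = 6.56e-05 by edgeR). So CASP1, CASP4 and GSDMD were each higher in every NOZ-R library than in any NOZ library. GSDME, another gasdermin, fell from 25.7, 22.5 and 24.1 CPM to 16.7, 18.6 and 17.4 CPM (-0.46 ± 0.0900, SE, adjusted p = 0.000586 by edgeR).

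Whole chromosomes differed between the lines, with medians of the log2 fold change between -0.64 on chromosome 9 and 0.33 on chromosome 6, and these are given for the listed genes they touch. XIAP lies on X, whose median was -0.44, and CASP2, GSDME and CYCS lie on chromosome 7, whose median was -0.30. With each chromosome's median removed, XIAP stood at 0.38 and CYCS at 0.26, both called higher, while with libraries scaled by total count only they were called lower (-0.19 and -0.17). With the chromosome medians removed, CASP2 stayed lower at -0.54, and GSDME at -0.16 was no longer called. RIPK1 and BAK1 lie on chromosome 6. RIPK1 stayed higher at 0.24, while BAK1 turned to -0.30 and was called lower. BCL2L2 (0.29) and BCL2L11 (-0.40) gained a call, and BOK (0.15), HTRA2 (0.17), BIRC6 (0.03), TRADD (0.37) and MLKL (0.11) lost theirs. In all, 15 genes of the list were then higher and 8 lower. The genes changed by at least 2-fold moved little, with CASP1 at 2.10, CASP4 at 1.66, PMAIP1 at 1.15 and BMF at -2.15.

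**Figure D5:**
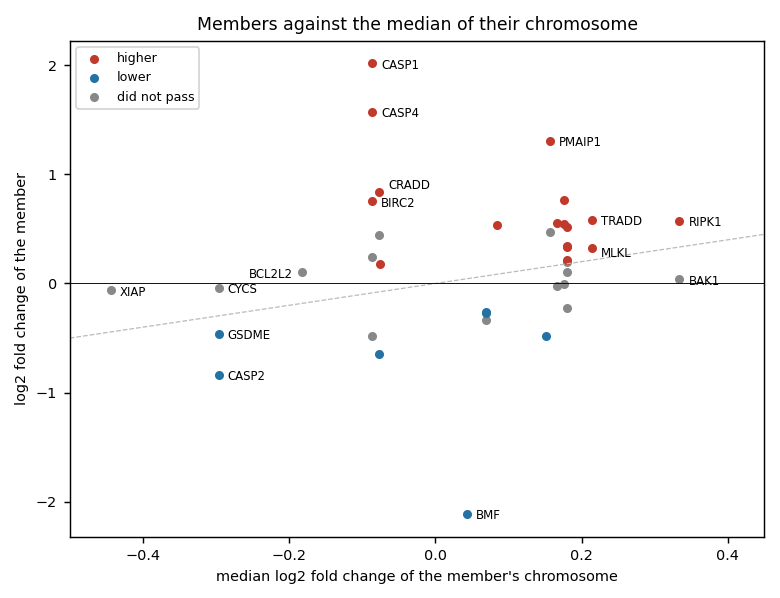
Log2 fold change of each tested gene of the list (y axis) against the median log2 fold change of all tested genes on its chromosome (x axis), coloured by call, with equality dashed. XIAP and CYCS lie above the dashed line at the left although their own values are near 0, and CASP1, CASP4, PMAIP1 and BMF lie far from it.

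The neighbouring pathway genes were counted in lists of 126 genes outside the 42, of which 110 were tested, 40 were higher and 32 lower, with a median log2 fold change of 0.00. The share called, 65.5%, was near the 60.2% of all tested genes. Of 11 tested death ligands and receptors 7 were higher and 1 lower (63.6% and 9.09%, beside 30.4% and 29.8% of all tested genes). TNFSF10, the death ligand TRAIL, had 24 counts over NOZ and 732 over NOZ-R (5.02 ± 0.201, SE, adjusted p = 1.50e-10 by edgeR). Its death receptors TNFRSF10A and TNFRSF10B rose by 0.58 and 0.34, and the decoy receptor TNFRSF10D, which binds the ligand without a full death domain, rose by 1.02. TNFRSF11B, the soluble receptor osteoprotegerin that also binds TRAIL, had 1 count over NOZ and 211 over NOZ-R. TNFRSF25 fell by 0.50. FAS, whose ligand FASLG had at most 6 counts over a line, measured 16.2 CPM ± 2.44 in NOZ against 17.7 CPM ± 1.24 in NOZ-R (SD, n = 3 per line) and did not pass.

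Among other inhibitors of apoptosis, BIRC3, the neighbour and close relative of BIRC2, rose from 22.6 CPM ± 4.02 to 116 CPM ± 12.6 (SD, n = 3 per line), a log2 fold change of 2.36. BIRC5, which also works in mitosis, rose by 0.21. The caspase genes CASP5, CASP12 and CASP14 had no count in any library. In the receptor complex list 6 of 15 were higher and 3 lower (40% and 20%, beside 30.4% and 29.8% of all tested genes). TNFAIP3, the ubiquitin-editing enzyme A20, rose by 2.86, and RBCK1, a subunit of the linear ubiquitin ligase, by 0.86, while the kinase gene TBK1 fell by 0.54 and TRAF2 fell by 0.35.

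Mitochondrial death regulators leaned to lower values, with 14 of 23 tested lower and 1 higher, or 60.9% lower against 29.8% of all tested genes. Their median log2 fold change was -0.23, so most changes were small. MOAP1, a BAX activator, had 1537 counts over NOZ and 768 over NOZ-R and fell by 0.90. OMA1, the protease of the inner membrane, fell by 0.69, and OPA1, the cristae-shaping GTPase that OMA1 cleaves, fell by 0.62. The channel genes VDAC1, VDAC2 and VDAC3 fell by 0.14, 0.23 and 0.52, and the apoptosis-inducing factor AIFM1 fell by 0.57. PGAM5, a mitochondrial phosphatase, was the one gene called higher (0.32). Of the genes called lower, BNIP3, VDAC2, BAG3 and PPIF lie on chromosome 10 with its median of -0.60, BAG1 on chromosome 9 with -0.64, AIFM1 on X with -0.44, FIS1 on chromosome 7 with -0.30 and MOAP1 on chromosome 14 with -0.18. The others called lower lie on chromosomes with medians closer to no change or above it. OMA1 lies on chromosome 1 with 0.17, VDAC3 and BAG4 on chromosome 8 with 0.08, and OPA1 on chromosome 3 with -0.07. VDAC1 lies on chromosome 5 with -0.05 and DNM1L on chromosome 12 with -0.08. The part of these medians in the list's count was not tested.

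Of 14 tested inflammasome and pyroptosis genes 7 were higher and 2 lower (50% and 14.3%). Over all tested genes 30.4% were higher and 29.8% lower. The share called in this list, 64.3%, was near the 60.2% of all tested genes. GBP2, an interferon-induced GTPase of the family that binds bacterial lipopolysaccharide, rose from 4 to 1151 summed counts, and the sensor NLRP3 from 15 to 131. The sensor gene NLRP1 rose by 2.06, while CARD8 and GSDMB fell by 0.47 and 0.55. The inflammasome adaptor PYCARD measured 4.22 CPM ± 0.286 and 3.06 CPM ± 0.648 (SD, n = 3 per line) and did not pass. IL1B, a CASP1 substrate, rose by 0.84 and IL18 did not pass. Of 13 necroptosis regulators 5 were higher and 3 lower (38.5% and 23.1%, or 61.5% called). The nucleic acid sensor ZBP1 went from 20 to 263 summed counts, with PITPNB at 0.77, IPMK at -1.60 and FKBP5 at -0.74. Of 12 tested caspase substrates and nuclear effectors 3 were higher and 4 lower (25% and 33.3%, or 58.3% called). The channel gene PANX1 stood at 1.03, LMNA at 0.31, STK4 at -0.41 and LMNB1 at -0.24.

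The genes that control turnover or transcription of the BCL2 family counted 7 higher and 5 lower members of 17 tested. That is 41.2% and 29.4%, beside 30.4% and 29.8% of all tested genes. FOXO1 and DDIT3, transcription factors with BH3-only targets, rose by 2.51 and 2.05, whereas FOXO3 fell by 0.28. The transcription factor genes TP73 and TP63 rose by 1.21 and 1.64, the latter from 21 to 62 summed counts. The ubiquitin ligase genes HUWE1, MARCHF5 and BTRC, which have been linked to MCL1 turnover, fell by 0.59, 0.77 and 1.06, and USP9X, a deubiquitinase of MCL1, fell by 0.61. FBXW7, another ubiquitin ligase gene linked to MCL1, did not pass (0.18, adjusted p = 0.136 by edgeR). HUWE1 and USP9X lie on X, with its median of -0.44, and MARCHF5 and BTRC on chromosome 10, with -0.60. DYNLL1, the gene of a dynein light chain that binds BIM, rose by 0.41.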

How the data were processed

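RNA-seq of 3 NOZ and 3 NOZ-R libraries was analysed. The authors deposited raw counts per gene, and FPKM values that the authors made from the same counts with 1 length per gene. Per the submitters' processing notes fastp 0.22.0 was used and the build was GRCh38. The aligner, the counter and its strand setting were not given in the sources used here. The annotation release is likewise unknown, and the protocol names no step that marks strand.

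Samples were grouped by title. Counts were tested with edgeR 4.0.16 in R 4.3.3 (filterByExpr, TMM factors of 0.954 to 1.05, glmQLFit, glmQLFTest, Benjamini-Hochberg at 0.05), over all genes. CPM use the TMM-scaled library sizes, and an SE is the log2 fold change divided by the square root of F. For genes with few counts in 1 line the SE can be too small. Alternatives were other scalings, filters, DESeq2 1.42.0, limma 3.58.1 on log2(FPKM + 1) and log2(FPKM + 0.1), a replicate block, GC correction (loess, span 0.3), removal of chromosome medians, stricter thresholds, and leaving out each library. Positions came from GENCODE release 29 for GRCh38, and the code was tested on simulated data.

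The genes, lists and tests were chosen with earlier results of these data known. All 42 genes are reported, and of each pathway list up to 2 higher and 2 lower genes with at least 1 CPM. BIRC3 and TNFSF10 were always named, and other pathway genes (among them TNFRSF10A, VDAC1, OPA1, NLRP1, CARD16 and HUWE1) were named after their values were seen. Some genes of these lists are not reported here. Replicates were checked for duplicates (mean chi-square per gene of 2.16 to 11.2 between pairs, above about 1) and all libraries were kept. In NOZ replicate 2 the deviation from its line's mean ran with transcript GC (rank correlation -0.495 over genes), while NOZ replicates 1 and 3 gave 0.312 and 0.365. Intervals and floors cover counting error only.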

Additional observations from a re-analysis of the deposited data

How the results depend on the processing

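Of the 24 called genes of the list, 15 kept the call in every alternative other than the test against a 2-fold change, and CASP1, CASP4, PMAIP1 and BMF kept it there too. That test called 3 higher and 1 lower gene of the list, 11 and 1 pathway genes, and 847 and 442 of all genes, because it asks for more than any difference. With limma on log2(FPKM + 1) or log2(FPKM + 0.1), 11 genes of the list were lower in place of 7, and these values hold no composition correction. With the median of each chromosome removed, BAK1 (-0.30), CYCS (0.26) and XIAP (0.38) changed sign and were called. The cause was not tested. Over all genes, library size alone gave 3316 higher and 5468 lower calls, 37.8% of calls higher against 50.5%, and for the pathway genes 30 and 45. GC correction gave 35 higher and 45 lower pathway genes.

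Leaving out 1 library gave 15 to 17 higher and 5 to 7 lower genes of the list, and without NOZ replicate 2, which stood apart in GC content, 17 and 7. Deviations of same-numbered replicates correlated with 0.0682, -0.0224 and -0.0365, and those of differently numbered replicates between -0.0874 and 0.104. With 3 libraries per line these values cannot show whether same-numbered samples were handled together. With the replicate block 17 genes of the list were higher and 7 lower, and 4324 and 4180 of all genes. BAD, DIABLO and BCL2, which lay below about 50 counts in every library, had SEs of 0.263 to 0.380, so changes under 2-fold could be missed there.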
